A study of Flaveria ramosissima and Flaveria robusta and Flaveria sonorensis with 9 samples.

Results

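Mature leaves of a C4 plant, Flaveria trinervia, were compared with those of a C3 plant of the same genus, Flaveria robusta, at the control CO2 level. The comparison rests on the gene IDs that were present in both leaves, meaning that the mean reached 1 TPM in F. trinervia and in F. robusta alike (TPM, a length-corrected unit with a fixed total per library, is transcript abundance relative to all transcripts of the library). These were 10983 of the 29566 rows of the deposited table, called shared genes here, and each row is treated as 1 gene. Of them, 10947 were above 0 in all 6 libraries used, and 819 were below 1 TPM in at least 1. The 8 rows whose 4 IDs occur more than once were left out. The 6 libraries were 3 numbered libraries of F. trinervia and 3 of F. robusta, out of 24 leaf libraries of 4 species at 2 CO2 levels. The other leaf libraries were of 2 intermediate species, the Type II C3-C4 plant F. ramosissima and the Type I C3-C4 plant F. sonorensis, and of every species after 4 weeks at low CO2.

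All plants were grown in a chamber with 16 h of light at 200 µmol m-2 s-1 and 22 °C, and newly expanded mature leaves were taken. Low CO2 was labelled as 100 and the control as 380, both written in the unit of light intensity. The labels list 1 sample per species and CO2 level, but not whether its 3 libraries came from separate plants. The p-values below therefore measure only the spread between these libraries. With 1 species per photosynthetic type, type and species cannot be told apart. Because the reads of each species were mapped to its own genome, unequal gene models or gene pairing cannot be told apart from unequal abundance.

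In C3 leaves, Rubisco fixes CO2 directly in the mesophyll, and the oxygenation reaction of the same enzyme feeds photorespiration. In C4 leaves, phosphoenolpyruvate carboxylase makes a 4-carbon acid in the mesophyll, and CO2 is set free from such acids in the bundle sheath, where Rubisco is kept. This cycle uses abundant enzymes and metabolite transporters, among them the plastid phosphoenolpyruvate transporter on which the study centred. Flaveria is much used for such comparisons because close relatives with C3, intermediate and C4 leaves exist. The IDs of the table hold no gene names (0 of 29566), so no result below can be assigned to an enzyme, to a transporter or to a leaf cell type, and the tissue could not be checked against marker genes.

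F. trinervia and F. robusta libraries were similar in the share held by the shared genes and in the number of rows present. The shared genes held 84.8% ± 0.322 of the full TPM scale in F. trinervia and 85.3% ± 0.261 in F. robusta (SD, n = 3 libraries each). Of all rows, 13810 ± 273 were at 1 TPM or more in F. trinervia and 13355 ± 283 in F. robusta. These counts were 14121, 13609 and 13701 in the F. trinervia libraries, against 13646, 13340 and 13080 in the F. robusta libraries, and the groups overlapped (two-sided exact permutation p = 0.2 from 20 arrangements, where 0.1 is the smallest that 3 against 3 allow). Over the shared genes, the rank correlation between libraries was at least 0.959 within F. trinervia and at least 0.964 within F. robusta. Between the species it lay between 0.693 and 0.747 for the 9 pairs of libraries. The deposited values carry no read numbers, so the depth behind a value is unknown, and intervals for counting error were not computed.

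The 10 and the 100 leading genes took a smaller share of the TPM in every F. trinervia library than in any F. robusta library. The 10 most abundant shared genes of a library took 15.2%, 16.3% and 16.9% of the TPM of the shared genes in the F. trinervia libraries, against 25.3%, 26.5% and 25.4% in the F. robusta libraries. The difference of the means was -9.55 percentage points. For the 100 most abundant genes the shares were 49.8% ± 1.48 in F. trinervia and 57.4% ± 0.567 in F. robusta, again without overlap. For the 1000 most abundant genes they were 82.0% ± 1.22 and 83.1% ± 0.299, with overlapping libraries. The exact permutation p was 0.1, 0.1 and 0.2 for these 3 shares (two-sided, Benjamini-Hochberg adjusted 0.15, 0.15 and 0.2), so the design could not reach 0.05.

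The most abundant shared genes were partly different genes. Of the 10 with the highest mean in F. trinervia, 2 were also among the 10 highest of F. robusta, and of the first 100, 61 were shared. The single most abundant gene was the same in both species, with 26165, 29038 and 28297 TPM in F. trinervia and 38681, 36121 and 41041 TPM in F. robusta. All F. trinervia libraries lay below the F. robusta libraries for this gene, with a log2 difference of -0.47 (SE 0.10) at a limma adjusted p of 0.00363. The gene at rank 3 by the mean of both species overlapped, with 14709, 16700 and 17282 TPM in F. trinervia and 18881, 14753 and 16927 TPM in F. robusta.

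The main test asked which shared genes differed in abundance between the C4 and the C3 leaf. Differences are given as F. trinervia minus F. robusta of log2(TPM + 1), which understates the differences of low genes, and were tested with limma. A gene was called at a Benjamini-Hochberg adjusted p below 0.05 over all shared genes. As deposited, 3889 genes were higher in F. trinervia (35.4% of those tested) and 2965 were lower (27.0%). The libraries did not overlap for 4258 genes higher in F. trinervia (38.8%) and for 3301 lower (30.1%). Of the called genes, 1931 of the higher and 1552 of the lower genes differed by 2-fold or more, and 163 and 167 by 8-fold or more. A difference of 128-fold or more was called for 8 higher and 7 lower genes. The quartiles of the difference over all shared genes were -0.53 and 0.74, and the median was 0.12 (log2).

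Because the median of all shared genes was above 0, the balance of higher and lower calls was examined after median-ratio scaling. This divides each library by its median ratio to the geometric mean of the 6 libraries, and it moved the median difference to 0.00, a shift of 0.12 (log2). The factors were 1.15, 0.997 and 1.03 for the F. trinervia libraries and 1.01, 0.940 and 0.926 for the F. robusta libraries. After scaling, 3414 genes were called higher (31.1%) and 3492 lower (31.8%). The balance over all shared genes thus depended on the scaling, and with quantile normalization it was 3564 higher and 3428 lower. Of the genes differing by 8-fold or more, 137 were higher and 186 lower after median-ratio scaling. All 3414 genes called higher after scaling and all 2965 called lower as deposited carried the same call under both treatments, and 0 genes were called in opposite directions. With a difference of 2-fold or more under both, 1622 genes were higher and 1552 lower.

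**Figure D1:**
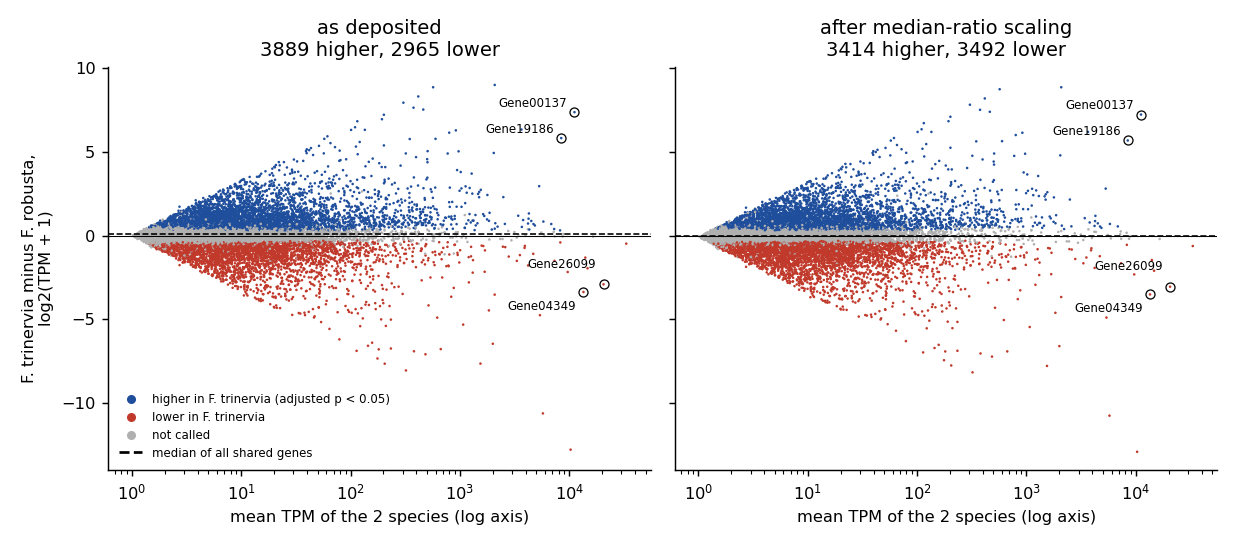
Difference between the C4 and the C3 leaf for each of 10983 shared genes (vertical axis, F. trinervia minus F. robusta, log2(TPM + 1)) against its mean TPM in both species (horizontal log axis), as deposited on the left and after median-ratio scaling on the right. Blue points are called higher in F. trinervia, red points lower, grey points are not called, the dashed line is the median difference and circles mark the 4 named IDs. The dashed line lies at 0.12 on the left and at 0.00 on the right, and both clouds reach from about -13 to 9, the fan shape following from the minimum of 1 TPM in each species.

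A large part of the shared genes differed little. The 95% confidence interval of the difference lay within 2-fold in either direction for 5060 genes as deposited (46.1%) and for 5227 after scaling (47.6%). Of the 4129 genes that were not called as deposited, 3569 had such an interval. For the other 560 the interval was wider, and a difference of 2-fold could not be told from none.

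Calls were more frequent among abundant genes. In the class with a mean of 1 to 10 TPM over both species, 1645 of 5288 genes were higher in F. trinervia (31.1%) and 1235 lower (23.4%). In the class of 10 to 100 TPM it was 1796 and 1456 of 4764, and in the class of 100 to 1000 TPM 391 and 238 of 815. Of the 116 genes at 1000 TPM or more, 57 were higher (49.1%) and 36 lower (31.0%). The median size of the difference also grew over the first classes, with 0.56, 0.70, 0.95 and 0.92 (log2) from the lowest class to the highest. In the low classes, the size is held down by the 1 added before the log and by the minimum of 1 TPM in each species. The median SE fell over the same classes, with 0.18, 0.15, 0.14 and 0.12, so the ability to call a difference was not equal between them. The larger number of higher calls held after scaling only in the upper classes, with 351 higher and 269 lower at 100 to 1000 TPM and 48 and 36 at 1000 TPM or more. In the lower classes the scaled counts were 1461 higher and 1512 lower, and 1554 and 1675.

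**Figure D2:**
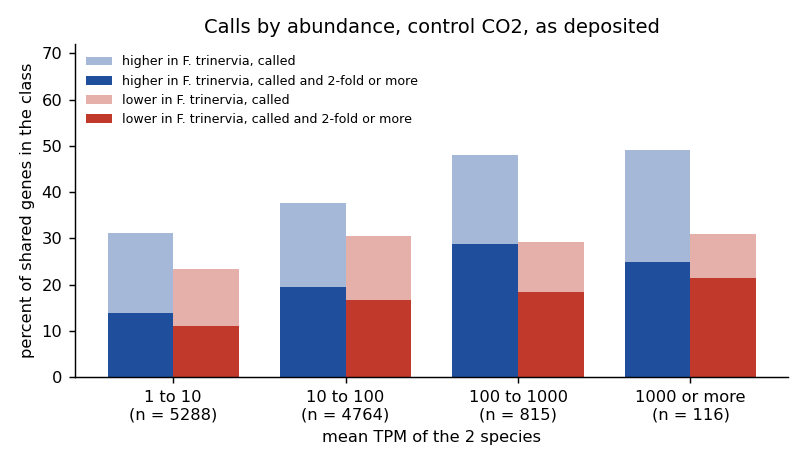
Percent of shared genes called in each direction at control CO2 by class of abundance (mean TPM of both species, as deposited). Pale bars are all calls and dark bars, drawn over them from 0, those of 2-fold or more, blue for higher and red for lower in F. trinervia. The pale blue bars grow from 31.1% in the lowest class to 49.1% in the highest.

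The differences in TPM were concentrated in few genes, and more so for the genes that were lower in the C4 leaf. Over the 6089 shared genes with a higher mean in F. trinervia, called or not, the gains summed to 31.6% of the full TPM scale, and 63 genes made up 50% of this sum. Over the 4890 genes with a lower mean, the losses summed to 32.1%, and 12 genes made up 50%. TPM has a fixed total and the shared genes held similar shares of it in both species. The summed gains and losses were therefore bound to be close. The 10 largest gains held 23.8% of the summed gain and the 10 largest losses 48.3% of the summed loss.

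The IDs named here are those with the largest mean TPM difference in each direction among 474 higher and 481 lower genes that were called and differed by 4-fold or more under both treatments without overlap of the libraries. Only 2 IDs are named each way because none can be given a gene name. Gene00137 had 20417, 21486 and 24578 TPM in F. trinervia, against 166, 315 and 43.4 TPM in F. robusta. The F. trinervia libraries were close to each other, while F. robusta library 3 lay well below libraries 1 and 2. Its mean was 22160 ± 2161 TPM in F. trinervia and 175 ± 136 TPM in F. robusta (SD, n = 3 libraries each), a ratio of 127 (log2 difference 7.38, SE 0.61, limma adjusted p = 3.3e-05). The log2 difference was 8.01 without F. robusta library 2 and 6.59 without F. robusta library 3. Gene00137 ranked second among the shared genes of F. trinervia and 534th among those of F. robusta.

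Gene19186 had 15093, 16213 and 18510 TPM in F. trinervia, against 296, 281 and 292 TPM in F. robusta. Here the F. robusta libraries were nearly equal, and the groups were far apart. The mean was 16605 ± 1742 TPM in F. trinervia and 289 ± 7.80 TPM in F. robusta, a ratio of 57.4 (log2 5.83, SE 0.11, limma adjusted p = 5.54e-08). Together, Gene00137 and Gene19186 ranked 2 and 3 among the shared genes of the C4 leaf.

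Gene26099 was the second most abundant shared gene of the C3 leaf. It had 4981, 4563 and 5038 TPM in F. trinervia, against 33085, 38878 and 36990 TPM in F. robusta. Its difference was -2.90 (SE 0.10, limma adjusted p = 8.12e-07), with F. robusta at 7.47 times the F. trinervia mean. It was still the 28th most abundant shared gene in F. trinervia. Gene04349, at rank 3 in F. robusta, had 2649, 2352 and 2185 TPM in F. trinervia, against 22582, 27362 and 23865 TPM in F. robusta. Its difference was -3.36 (SE 0.12, limma adjusted p = 8.07e-07), with F. robusta at 10.3 times the F. trinervia mean. Median-ratio scaling changed the 4 differences to 7.24, 5.69, -3.04 and -3.50 in the order named. A call after scaling was a condition of their choice.

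**Figure D3:**
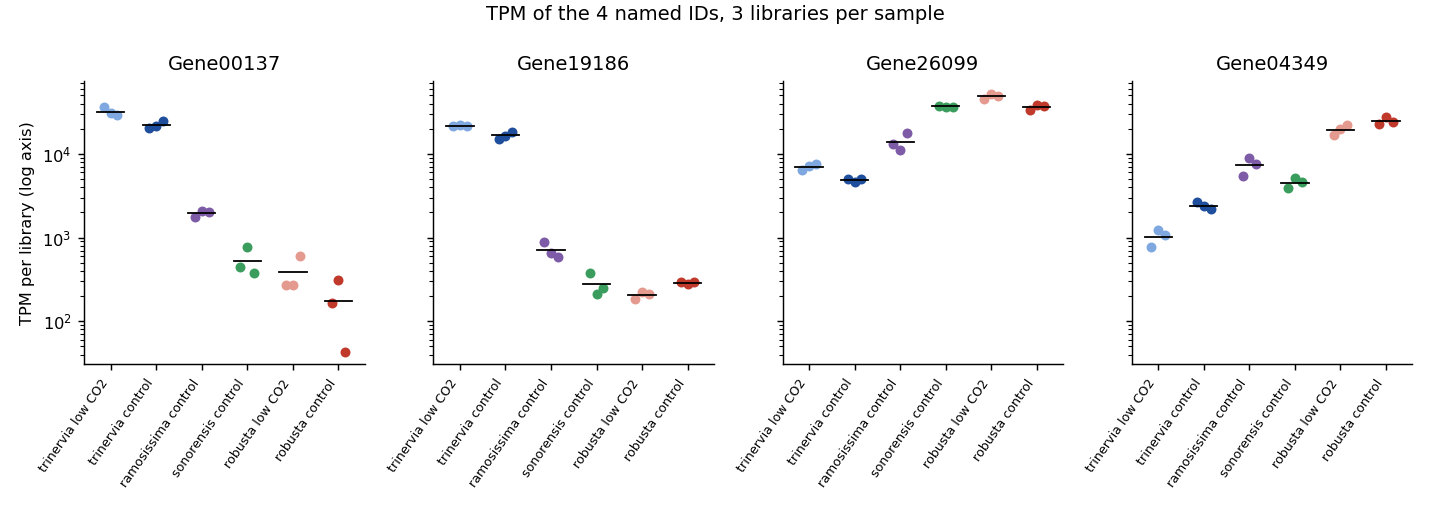
TPM per library (vertical log axis) of the 4 named IDs in F. trinervia and F. robusta at low and control CO2 and in the C3-C4 species F. ramosissima and F. sonorensis at control CO2. Points are libraries, 3 for each sample, and black lines are means. Gene00137 and Gene19186 lie at 15093 TPM or more in all F. trinervia libraries, against at most 608 TPM in F. robusta, while Gene26099 and Gene04349 lie lower in F. trinervia than in F. robusta at both CO2 levels.

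The genes next in this order were of more than one kind. Among the higher genes, the fourth had 7227 ± 470 TPM in F. trinervia and 89.2 ± 17.2 TPM in F. robusta, and the fifth 4156 ± 848 TPM and 8.45 ± 6.34 TPM. The third was also abundant in the C3 leaf, with 9400 ± 312 TPM in F. trinervia and 1219 ± 203 TPM in F. robusta. Among the lower genes, 2 were close to absent in the C4 leaf. The third had 6.56, 0.930 and 0.720 TPM in F. trinervia, against 18614, 22389 and 20732 TPM in F. robusta. The fifth had 9.24, 4.90 and 5.52 TPM in F. trinervia, against 12211, 11960 and 10288 TPM in F. robusta. The third passed the minimum of 1 TPM through F. trinervia library 1 alone, so its presence in F. trinervia rests on that library.

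A set of abundant genes with large differences was then described as a whole. At a mean of 1000 TPM or more over both species, 29 genes were called higher by 2-fold or more and 25 lower, and the call of each held after scaling. The size of the difference lay between 1.02 and 9.01 (log2) in the higher genes, with a median of 2.52, and between 1.08 and 12.8 in the lower genes, with a median of 2.17. At control CO2, from which they were chosen, the 29 higher genes took 12.04%, 12.53% and 13.3% of the full TPM scale in F. trinervia, against 2.15%, 1.87% and 1.93% in F. robusta. The 25 lower genes took 4.34%, 4.48% and 4.29% in F. trinervia, against 21.9%, 24.2% and 22.6% in F. robusta. Of the 23 genes in this class that were not called, 22 had a confidence interval within 2-fold.

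The low CO2 libraries, which neither the choice of genes nor the control test had used, gave a second measurement of the same contrast. At low CO2, F. trinervia was higher than F. robusta for 4343 of the shared genes by limma (39.5%) and lower for 2911 (26.5%), with 3651 higher (33.2%) and 3692 lower (33.6%) after median-ratio scaling. Of the 3889 genes higher at control, 3178 were called higher at low CO2 (81.7%) and 58 lower. Of the 2965 genes lower at control, 2124 were called lower at low CO2 (71.6%) and 115 higher. Among genes differing by 2-fold or more at control, 1786 of 1931 higher genes and 1279 of 1552 lower genes were called in the same direction. The median difference of these 2-fold genes was 1.55 at low CO2 against 1.52 at control for the higher genes, and -1.36 against -1.58 for the lower genes (log2).

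With 1 value per library, the 6854 genes called at control differed at low CO2 by 1.13 ± 0.0279 (mean and SE, log2) in the direction seen at control. The exact permutation p was 0.1 (two-sided, 20 arrangements), the smallest that 3 libraries against 3 allow. Across the shared genes, Pearson's r between the control and the low CO2 difference was 0.841 and Spearman's rho 0.806. These are across genes, which are not independent replicates, and no library enters both differences. Of the abundant genes, 28 of the 29 higher genes were called higher at low CO2 and 25 of the 25 lower genes lower. They took 13.6%, 14.1% and 13.8% of the TPM scale in F. trinervia and 1.87%, 1.87% and 2.02% in F. robusta for the higher genes, and 4.37%, 4.91% and 4.82%, against 21.9%, 24.1% and 25.8%, for the lower genes.

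**Figure D4:**
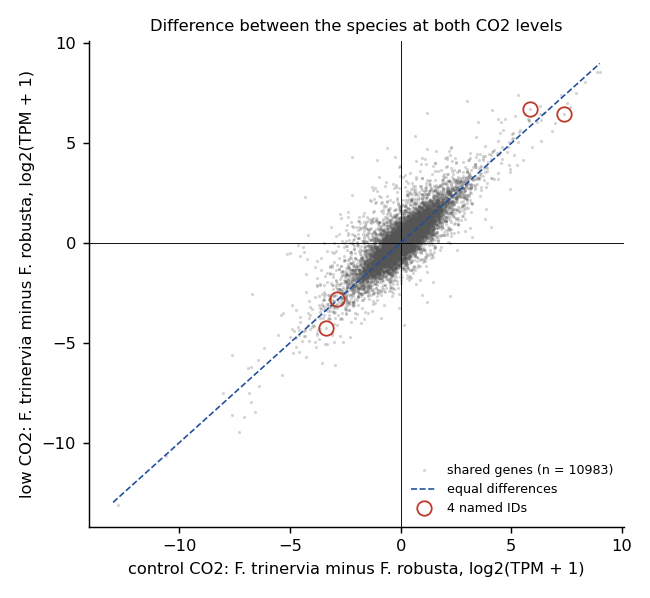
Difference between F. trinervia and F. robusta (log2(TPM + 1)) at low CO2 on the vertical axis against that at control CO2 on the horizontal axis for the 10983 shared genes, as deposited. The dashed line marks equal differences and red circles the 4 named IDs. The points follow the line (Pearson's r 0.841), and few lie in the upper left or lower right.

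Among the named IDs, Gene00137 reached 36063, 30529 and 28901 TPM in F. trinervia at low CO2, against 270, 271 and 608 TPM in F. robusta (log2 6.48, SE 0.29, limma adjusted p = 6.1e-07). Gene19186 reached 21633, 22086 and 21557 TPM, against 186, 225 and 212 TPM (log2 6.71, SE 0.11, adjusted p = 6.63e-09). Gene26099 was at 6485, 7174 and 7514 TPM in F. trinervia, against 44776, 52075 and 49670 TPM in F. robusta (log2 -2.79, SE 0.11). Gene04349 was at 772, 1247 and 1060 TPM, against 16801, 19694 and 21988 TPM (log2 -4.26, SE 0.19). In none of the 4 did the species overlap.

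Whether the difference between the species itself changed with CO2 was tested by the interaction term of a limma model of the 12 libraries of both species. The difference (F. trinervia minus F. robusta) was higher at low CO2 than at control for 1053 shared genes (9.59%) and lower for 676 (6.15%), and after scaling for 1016 (9.25%) and 937 (8.53%). Leaving out 1 library gave 1142 to 1800 genes in all, lowest without F. robusta control library 2. The count was also low without other libraries, with 1204 without F. robusta control library 3 and 1229 without F. trinervia low CO2 library 1. Of the 1729 genes, 1190 were among those called at control, while 6854 of all 10983 shared genes were called at control. These shares were not tested against each other. Of all shared genes, 173 were called in opposite directions at the 2 CO2 levels. The 58 of these that were higher at control had a median difference of -0.68 at low CO2 and 0.73 at control, and the 115 that were lower at control had 0.89 at low CO2 and -0.998 at control (log2). The difference of Gene19186 was larger at low CO2 by 0.88 (SE 0.14, adjusted p = 0.00229), and that of Gene04349 was further from 0 by -0.91 (SE 0.23, adjusted p = 0.0231). The call of Gene04349 was lost without F. robusta low CO2 library 3 (limma adjusted p = 0.0541) or F. robusta control library 3 (0.0503). The interaction was not called for Gene00137 (-0.90, SE 0.76, adjusted p = 0.454) or Gene26099 (0.11, SE 0.14, adjusted p = 0.64).

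The measured difference between the species was larger than that between CO2 levels. Only the former compares values mapped to separate genomes, so the sizes are not of like kind. Over the shared genes, the median size of the difference between F. trinervia and F. robusta was 0.69 at low CO2 and 0.64 at control (log2). The median size of the difference between low and control CO2 was 0.28 in F. trinervia and 0.33 in F. robusta. A difference of 2-fold or more was found between the species in 34.8% of the genes at low CO2 and 32.0% at control, and between CO2 levels in 7.81% in F. trinervia and 10.1% in F. robusta.

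The levels of the C3-C4 species were placed on the scale set by F. robusta (position 0) and F. trinervia (position 1) in log2(TPM + 1), for the genes called with a 2-fold or larger difference. This is a description, as the genes were chosen on the end points. Of the 10983 shared genes, 8722 (79.4%) reached a mean of 1 TPM at control CO2 in both C3-C4 species. A gene low or missing in a C3-C4 species falls toward the lower end point. That end point is F. robusta for the higher genes and F. trinervia for the lower genes. The part of such genes in the positions and in the counts below was not tested. As deposited, the median position over the 1931 higher genes was 0.775 in F. sonorensis and 0.0392 in F. ramosissima, and over the 1552 lower genes it was 0.286 in F. sonorensis and 0.990 in F. ramosissima. F. sonorensis thus had high levels and F. ramosissima low levels in both sets of genes. Median-ratio scaling of the 12 control libraries used factors of 1.75, 1.61 and 1.74 for F. sonorensis and 0.722, 0.618 and 0.424 for F. ramosissima. It brought the species closer together and turned their order in both sets. The genes were the same, chosen as deposited. The median positions were then 0.347 in F. sonorensis and 0.468 in F. ramosissima for the higher genes, and 0.646 and 0.576 for the lower genes. The position of an intermediate species between C3 and C4 levels therefore depended on the scaling. Leaving out F. ramosissima control library 3, which had the lowest factor, gave positions of 0.179 for the higher and 0.916 for the lower genes as deposited.

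**Figure D5:**
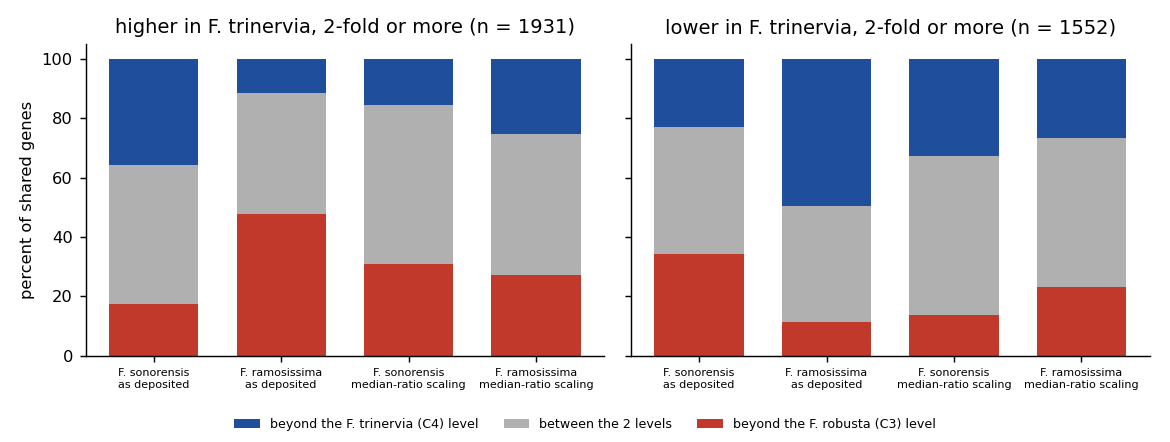
Percent of shared genes whose mean in F. sonorensis or F. ramosissima at control CO2 lay beyond the F. trinervia (C4) level (blue), between both levels (grey) or beyond the F. robusta (C3) level (red), for genes called with a difference of 2-fold or more. The left panel shows the 1931 genes higher in F. trinervia and the right panel the 1552 lower genes, each as deposited and after median-ratio scaling. After scaling the grey share lies between 47.5% and 53.7%, and the contrast between the species seen as deposited is reduced.

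After scaling, both intermediate species were nearer to the C3 level for 629 of the 1931 higher genes (32.6%) and nearer to the C4 level for 418 (21.6%). For the 1552 lower genes, both were nearer to the C3 level for 340 (21.9%) and nearer to the C4 level for 541 (34.9%). A graded order from C3 over Type I and Type II to C4 was found for 266 of the higher genes (13.8%) and 249 of the lower genes (16.0%) after scaling, and for 112 (5.80%) and 179 (11.5%) as deposited. The other graded order, from C3 over Type II and Type I to C4, was found for 294 of the higher and 212 of the lower genes after scaling, and for 289 and 85 as deposited. Among the higher genes this second order was the more frequent under both treatments, but the counts were not tested against each other. Among the higher genes of 4-fold or more, it was found for 105 after scaling, against 108 for the first order. As deposited, these counts were 127 and 55.

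Among the 29 abundant higher genes, F. ramosissima was nearer to the C4 level for 9 genes and F. sonorensis for 7 as deposited. After scaling this was 19 and 3 genes, and for 17 genes F. ramosissima was nearer to the C4 level while F. sonorensis was nearer to the C3 level. The summed share of these genes was 4.27%, 4.31% and 4.37% of the TPM scale in F. ramosissima, while F. sonorensis had 2.24%, 2.47% and 2.32%. The F. ramosissima libraries lay above every F. sonorensis and F. robusta library and below every F. trinervia library. The summed share of the 25 abundant lower genes was 9.20%, 10.6% and 9.20% in F. ramosissima, while F. sonorensis had 13.9%, 14.8% and 14.1%. Both lay between the F. trinervia and the F. robusta libraries. Counted by gene, F. ramosissima was nearer to the C4 level for 15 of these 25 genes and F. sonorensis for 11 as deposited, but for 4 and 18 genes after scaling, so that the order of the intermediate species turned. The summed shares rest on the values as deposited, and the end points were again used to choose the genes.

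As deposited, the 4 named IDs differed in where the intermediate species lay. Gene00137 averaged 1973 ± 176 TPM in F. ramosissima, above the 530 ± 204 TPM of F. sonorensis, and Gene19186 averaged 710 ± 158 TPM and 282 ± 88.7 TPM (SD, n = 3 libraries each). For both, F. ramosissima lay above F. sonorensis without overlap, and far below F. trinervia. Gene26099 averaged 13991 ± 3392 TPM in F. ramosissima and 36923 ± 590 TPM in F. sonorensis. As deposited, the F. sonorensis mean lay within the range of the F. robusta libraries. Median-ratio scaling would lower the F. sonorensis values (factors of 1.61 to 1.75) and raise those of F. ramosissima (0.424 to 0.722). The placement of Gene26099 can therefore depend on the scaling, which was not tested for single IDs. Gene04349 averaged 7342 ± 1746 TPM in F. ramosissima and 4547 ± 573 TPM in F. sonorensis, both between the F. trinervia and F. robusta levels. The third lower gene, close to absent in F. trinervia, averaged 1260 ± 319 TPM in F. ramosissima and 23184 ± 1724 TPM in F. sonorensis.

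Genes below the minimum in 1 of the species were not part of the comparison but were counted. At 1 TPM or more on average, 2917 rows were present in F. trinervia and below the minimum in F. robusta, and 2450 the other way round. They held 7.46% of the TPM in F. trinervia and 7.31% in F. robusta. Of these, 1697 of the F. trinervia rows and 1552 of the F. robusta rows were listed at 0 in all control libraries of the other species. The highest mean was 7007 TPM among the F. trinervia rows and 7781 TPM among the F. robusta rows, so very abundant rows were among those left out. Their presence in 1 species was also found at low CO2 for 2303 F. trinervia rows (79.0%) and 1949 F. robusta rows (79.6%). With a minimum of 10 TPM in the higher species, these shares were 96.6% of 620 and 95.4% of 591 rows. Of these 620 and 591 rows, 486 and 464 were listed at 0 in all control libraries of the other species. A row without a paired gene would be at 0 at both CO2 levels. Repeated presence in 1 species therefore cannot be told apart from a missing pair. In F. sonorensis or F. ramosissima at control CO2, 73.7% of the F. trinervia rows and 71.4% of the F. robusta rows reached 1 TPM. Within 0.05 TPM of the minimum in the lower species, the 87 shared genes just inside it had a median difference of 0.20, against 0.27 for the 83 rows just outside.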

How the data were processed

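Leaf mRNA was sequenced with 150 bp paired-end reads. The authors aligned reads to the genome of each species with STAR (2.7), estimated abundance with RSEM (1.3.3) and deposited TPM values per gene ID and library. The growth conditions in the methods differ from those in the labels, which are used here, and the sources used here do not say how IDs pair genes across species. RSEM splits reads between similar gene copies, which makes the values of such copies uncertain. Deposited columns were matched to samples by sample code, and 0 columns were left unused.

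Genes and tests were chosen with earlier results of these data known. Values were log2(TPM + 1), tested two-sided in R 4.3.3 by the moderated test of limma 3.58.1 with a variance trend, at a Benjamini-Hochberg adjusted p below 0.05 over 10983 genes, as deposited and after median-ratio scaling over the 10947 genes above 0 in the 6 control libraries. Single values per library were compared by exact permutation. The limma tests of the control, low CO2 and interaction contrasts and the scaling were tested on simulated data. Named IDs had the largest mean TPM difference each way (2 each) among genes called under both scalings with a log2 difference of at least 2 and no overlap. The planned C4 shuttle, Calvin-Benson and photorespiration lists were not tested, as 0 IDs hold gene names. Alternatives covered the pseudocount, minimum TPM, scaling, variance trend, libraries in the fit, replicate block and leaving out each library.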

Additional observations from a re-analysis of the deposited data

Results flagged for a closer look

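The difference between the species was not equal at both CO2 levels for part of the shared genes, by the interaction term of the limma model at an adjusted p below 0.05. It was higher at low CO2 for 1053 genes and lower for 676. Of the named IDs, this held for Gene19186, with 0.88 (log2, adjusted p = 0.00229), and for Gene04349, with -0.91 (adjusted p = 0.0231). The call of Gene04349 was lost without F. robusta low CO2 library 3 (-0.81, adjusted p = 0.0541) and without F. robusta control library 3 (-0.89, adjusted p = 0.0503). The other named IDs were not called. The groups of 3 libraries were too small for a check of single libraries that stand apart.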

How the results depend on the processing

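The number of genes called at control CO2 (6854) followed the number of genes tested. It was 4106 with a minimum of 5 TPM in each species, 2743 with 10 TPM and 13548 with no filter, where 6483, 4322 and 21514 genes were tested. The other 14 alternatives stayed within 1.5 times, and the share of higher calls lay between 49.4% and 58.6%. Leaving out 1 library gave 5857 to 6733 calls as deposited, 6014 to 6818 after scaling and 6432 to 7021 at low CO2. The interaction gave 1142 to 1800 calls, lowest without F. robusta control library 2. Same-numbered libraries did not deviate together (correlations -0.16, -0.09 and 0.17), and with library number as a replicate block 6706 genes were called as deposited and 6618 after scaling. The difference in rows at 1 TPM or more (455) was 300 to 600 without 1 library, lowest without F. trinervia library 1, and that in the share of the first 1000 genes (-1.09) was -0.395 without the same library. Leaving out libraries for these single values, and the minimum of 10 TPM for rows present in 1 species, were chosen after seeing the data. Median positions moved with scaling to 0.347 and 0.646 in F. sonorensis and to 0.468 and 0.576 in F. ramosissima (higher and lower genes). Among genes differing by 4-fold or more, a choice made after seeing the data, F. sonorensis had 0.543 and 0.412, while F. ramosissima had 0.179 and 0.732. In the control and low CO2 contrasts, the 4 named IDs kept direction and call in every alternative that was run, with the control difference of Gene00137 between 6.59 and 8.01. For median-ratio scaling of the control contrast this was fixed by the way the IDs were chosen. The other control alternatives reused libraries in which the IDs had been chosen for large differences without overlap. They are therefore no independent support. Depth is unknown, so no limit from counting can be given.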
